A study of Mus musculus with 25 samples.

Results

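Mest, Sfrp5, Bmp3, Nnat and Peg3 are 5 genes linked to the expansion of fat mass in mice, and they were followed here through white adipose tissue of lean and obese animals. They were taken by gene symbol, as 5 of the 54752 genes counted in each library. All of the 5 passed the filter on low counts in every fit. The 25 RNA-seq libraries were each made from the epididymal (eWAT) or the inguinal (iWAT) white adipose depot of male C57BL/6N mice, which were either wild type (WT) or homozygous for a whole-body deletion of Acod1, the gene for the enzyme that makes itaconate. Mice entered the experiment at 5 weeks of age and ate normal chow (ND) or a high-fat diet (HFD) with 60% of its calories from fat for 16 weeks. The groups were WT on ND (n = 4 in eWAT, n = 3 in iWAT), WT on HFD (n = 5 in each depot) and Acod1-/- on HFD (n = 5 in eWAT, n = 3 in iWAT). Knockout mice on ND were not analysed here, and the labels give 17 and 18 weeks for replicates 2 and 3 of Acod1-/- iWAT. They do not tie an eWAT library to an iWAT library of the same mouse.

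White adipose tissue stores surplus fat by enlarging its adipocytes and by recruiting new ones from progenitors, and WNT and BMP signals between these cells govern that recruitment. Mest, Nnat and Peg3 are imprinted genes that are expressed from the paternal allele. Mest encodes a hydrolase-like protein of the endoplasmic reticulum, Nnat a small membrane protein of the same compartment and Peg3 a large zinc finger protein of the nucleus. Sfrp5 is a secreted adipokine that binds WNT ligands, and Bmp3 is a secreted BMP family member that opposes signalling by other BMPs. Mest, Sfrp5 and Bmp3 are known for levels that vary widely between genetically identical mice and rise with the gain of fat.

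In GRCm38 (mm10), Mest (ENSMUSG00000051855) lies on the plus strand at chr6:30723547-30748465 and its 3′ end overlaps that of Copg2 on the opposite strand, at chr6:30747554-30896794. Sfrp5 (ENSMUSG00000018822) is on the minus strand at chr19:42197971-42202252. Bmp3 (ENSMUSG00000029335) is on the plus strand at chr5:98854415-98884396. Nnat (ENSMUSG00000067786) is on the plus strand at chr2:157560078-157562522, inside the minus-strand gene Blcap at chr2:157556362-157571274. Peg3 (ENSMUSG00000002265) is on the minus strand at chr7:6703892-6730431, head to head with Usp29 at chr7:6730578-6967219 and beside Zim1 at chr7:6671269-6696450. All of the 5 are annotated as protein coding. The library kit keeps strand, but whether the reads were counted by strand is not given in the sources used here, so reads from the overlapping parts of Mest and Copg2 or of Nnat and Blcap may have been left out or assigned to either gene.

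RefSeq promoter sequences (GRCm38.p6) were matched for 4 of the 5 genes, and Bmp3 had no entry. They are shown because the mRNAs of Mest and Sfrp5 were correlated over these libraries and that of Nnat was less so with either. Each is the stretch just upstream of the start that no annotated exon covers, written in the direction of transcription and ending at the last base before the start: chr6:30737800-30738049 (plus strand, 250 bases, 1 of 3 starts listed for Mest), chr19:42202253-42202502 (minus strand, 250 bases), chr2:157560008-157560077 (plus strand, 70 bases) and chr7:6730432-6730577 (minus strand, 146 bases). Capitals mark the motifs found on either strand.
Mest: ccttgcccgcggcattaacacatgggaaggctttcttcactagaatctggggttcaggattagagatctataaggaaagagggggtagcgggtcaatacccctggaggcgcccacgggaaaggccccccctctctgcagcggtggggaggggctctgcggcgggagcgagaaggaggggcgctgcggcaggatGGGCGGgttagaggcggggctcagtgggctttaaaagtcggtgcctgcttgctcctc
Sfrp5: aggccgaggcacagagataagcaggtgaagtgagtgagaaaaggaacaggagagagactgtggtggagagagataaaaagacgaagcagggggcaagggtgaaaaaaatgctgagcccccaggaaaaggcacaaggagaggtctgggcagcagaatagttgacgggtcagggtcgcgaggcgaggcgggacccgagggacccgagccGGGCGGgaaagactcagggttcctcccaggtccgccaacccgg
Nnat: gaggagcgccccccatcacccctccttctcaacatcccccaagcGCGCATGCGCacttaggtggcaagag
Peg3: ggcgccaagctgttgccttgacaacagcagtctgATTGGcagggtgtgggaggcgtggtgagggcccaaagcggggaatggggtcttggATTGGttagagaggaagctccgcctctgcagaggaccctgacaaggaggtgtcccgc
The GC box GGGCGG stood 57 to 52 bases before the start of Mest and 43 to 38 bases before that of Sfrp5, and 32.7% of 32851 mouse promoter windows of 250 bases hold it. Nnat carried an NRF1 motif, shown in capitals, at 26 to 17 bases before its start, which 0.782% of the windows hold. Peg3 carried the reverse complement of CCAAT at 124 to 120 and at 69 to 65 bases before its start, and 33.8% of the windows hold CCAAT on either strand. A CRE motif TGACGTCA (1.55% of windows) lay further upstream of Peg3, at 178 to 171 bases, where an exon of Usp29 is annotated. The letters of a TATA box (TATAAA), a YY1 site (GCCATNTT), a C/EBP site (TTGCGCAA) and a PPAR response element (DR1) were in none of the 4 windows of 250 bases, and 12.4%, 3.91%, 0.164% and 0.0335% of all windows hold them. CG dinucleotides numbered 14 for Mest, 13 for Sfrp5, 12 for Nnat and 8 for Peg3 in 250 bases, against a median of 6. These matches describe the letters of the windows and say nothing of binding.

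Each library had 31.41 to 52.34 M reads counted on genes (median 42.09 M), and the fewest reads on any of the 5 genes in a library were 309, for Mest. Values per library are CPM, counts scaled to library sizes after TMM normalization. Acod1 itself had 0 to 9 reads in every library and 0 to 2 in those of Acod1-/- mice, so its level does not check the genotype labels. Mature adipocyte markers (12 genes) summed to 20861 to 55052 CPM in the 25 libraries. Mesothelial markers (5 genes) summed to 32.4 to 140 CPM in eWAT and to 0.34 to 7.22 CPM in iWAT, as the depot labels say. Markers of other tissues were high in some libraries. Epididymis markers (6 genes) reached 7858 CPM in ND eWAT replicate 2, against 2.27 to 17.0 CPM in the other ND eWAT libraries. Lymphocyte and lymph node markers (6 genes) were at 555 to 864 CPM in the 3 ND iWAT libraries and at 1.48 to 53.1 CPM in the 8 HFD iWAT libraries. Skeletal muscle markers (5 genes) reached 7105 CPM in ND iWAT replicate 1. Mammary and skin epithelium markers (5 genes) reached 529 CPM in Acod1-/- iWAT replicate 2, against 2.52 and 3.93 CPM in the other 2 Acod1-/- iWAT libraries, and 311 CPM in ND eWAT replicate 2. The library numbers in the file headers fall into 2 series, and all ND libraries belong to the second. That series also holds WT HFD replicate 5 of each depot, Acod1-/- replicate 5 of eWAT and Acod1-/- replicate 3 of iWAT.

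**Figure D1:**
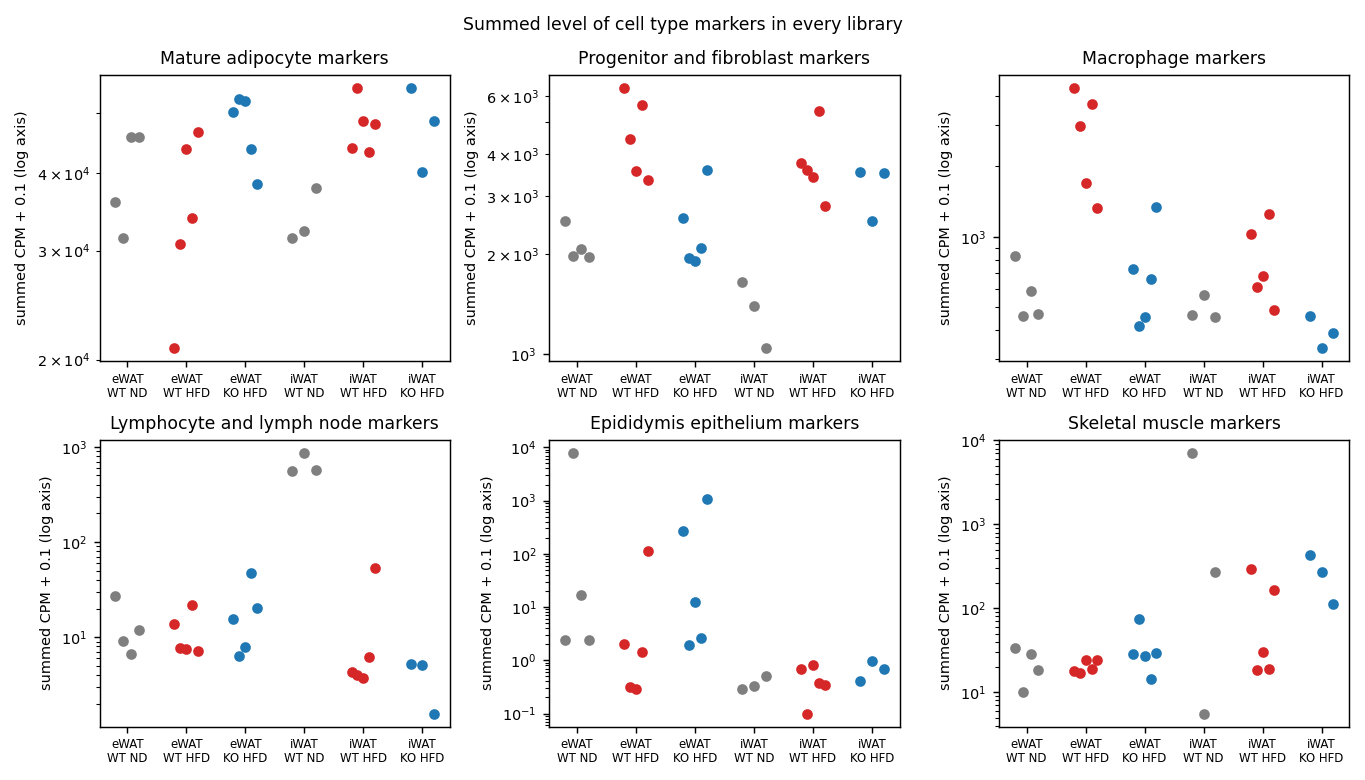
Summed CPM of 6 marker lists in every library, with 0.1 added, on log axes; each point is a library and colours give the group. Lymphocyte and lymph node markers separate the 3 ND iWAT libraries (555 to 864 CPM) from the rest, and epididymis markers reach 7858 CPM in ND eWAT replicate 2.

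Between ND-fed and HFD-fed WT mice, Mest had the largest log2 fold change of the 5 genes in both depots. Differences between genes were not tested. In WT eWAT, Mest measured 194, 87.7, 76.8 and 17.6 CPM in the 4 ND libraries and 552, 1034, 1495, 825 and 1642 CPM in the 5 HFD libraries. Every HFD library was above every ND library, and the means were 94.0 ± 73.4 (SD, n = 4) and 1109 ± 456 (SD, n = 5). The fitted log2 fold change was 3.56 ± 0.59 (SE), or 11.8-fold (edgeR quasi-likelihood test, adjusted p = 0.000814). In WT iWAT, Mest measured 49.6, 6.01 and 10.1 CPM on ND and 1274, 1983, 1787, 1325 and 1306 CPM on HFD. The ND level was low in 2 of the 3 libraries (309 and 445 reads), and the groups were again apart. The log2 fold change was 6.17 ± 0.79 (SE), or 72.1-fold (adjusted p = 0.000261). Without ND iWAT replicate 1 it was 7.59, and without ND eWAT replicate 1 the eWAT change was 4.17. In bulk tissue, a change in the share of cells that express a gene and a change in its RNA per cell cannot be told apart.

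Sfrp5, the WNT-binding adipokine, followed Mest with smaller changes. In eWAT it measured 272, 48.7, 90.3 and 13.3 CPM on ND and 226, 356, 535, 193 and 580 CPM on HFD in WT mice. ND replicate 1 lay inside the HFD range, so the groups overlapped. The log2 fold change was 1.83 ± 0.69 (SE, adjusted p = 0.0445). It was 2.89 without ND replicate 1 (adjusted p = 0.0053). It was not called without ND eWAT replicate 2, the library with epididymis markers (1.61, adjusted p = 0.103). In iWAT, Sfrp5 measured 84.2, 10.1 and 22.5 CPM on ND and 436, 477, 476, 312 and 466 CPM on HFD, with the groups apart. The log2 fold change was 3.51 ± 0.80 (SE), or 11.4-fold (adjusted p = 0.0052), and 4.75 without ND replicate 1.

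Bmp3 rose in both depots and was the most even of the genes among HFD-fed WT mice. In eWAT it measured 37.3, 9.56, 24.8 and 8.70 CPM on ND and 74.6, 85.2, 81.3, 77.8 and 86.3 CPM on HFD. The HFD libraries spanned 1.16-fold, against 4.29-fold for the ND libraries. The log2 fold change was 2.01 ± 0.38 (SE), or 4.03-fold (adjusted p = 0.00145). In iWAT, Bmp3 measured 36.2, 11.8 and 21.7 CPM on ND and 160, 157, 149, 137 and 178 CPM on HFD. The groups were apart, with a log2 fold change of 2.78 ± 0.40 (SE), or 6.87-fold (adjusted p = 0.000466).

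Among the remaining imprinted genes, Peg3 rose in iWAT and Nnat was not called in either depot. In iWAT, Peg3 measured 219, 96.1 and 81.4 CPM on ND and 273, 531, 277, 240 and 501 CPM on HFD. The HFD libraries were all above the ND libraries (log2 fold change 1.5 ± 0.40, SE, adjusted p = 0.0126). In eWAT, Peg3 measured 177, 94.7, 146 and 29.4 CPM on ND and 126, 240, 114, 65.9 and 358 CPM on HFD, and the groups overlapped (0.69 ± 0.51, SE, adjusted p = 0.284). With the header series as a term, the eWAT difference of Peg3 was 1.48 (adjusted p = 0.0727) and was called. Nnat, the most abundant of the 5 per length in every group, measured 1412, 1025, 1953 and 497 CPM on ND and 436, 802, 988, 514 and 1205 CPM on HFD in eWAT. These groups overlapped (log2 fold change -0.63, 95% interval -1.59 to 0.33, adjusted p = 0.267). In iWAT, Nnat measured 1514, 743 and 940 CPM on ND and 1262, 1265, 1282, 821 and 2432 CPM on HFD (log2 fold change 0.44, 95% interval -0.30 to 1.19, adjusted p = 0.316).

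For diet, 3 of the 5 genes were called in eWAT and 4 of 5 in iWAT, all higher on HFD. Of all genes tested, 51.8% were called in eWAT (24.8% higher) and 50.1% in iWAT (25.9% higher). The groups did not overlap, with HFD higher, for 2 of the 5 genes in eWAT and 4 of 5 in iWAT, against 17.2% and 24.4% of all genes. Among WT mice, only 1 HFD library per depot shares a header series with the ND libraries, so diet and series nearly coincide. In that library, WT HFD replicate 5, Mest was at 1642 CPM in eWAT and 1306 CPM in iWAT, Sfrp5 at 580 and 466 CPM, and Bmp3 at 86.3 and 178 CPM. Each was above every ND library of its depot. The same held for Peg3 (358 CPM in eWAT and 501 CPM in iWAT) and for Nnat in iWAT (2432 CPM). It did not hold for Nnat in eWAT (1205 CPM). The share of all genes above ND in that library, or called with series as a term, is not given here. With series as a term the log2 fold changes in eWAT and iWAT were 4.23 and 6.64 for Mest, 2.37 and 4.12 for Sfrp5 and 2.38 and 3.29 for Bmp3, and all were called. Lymphocyte and lymph node markers fell with diet in iWAT for 6 of 6 genes, and their part in the iWAT differences was not tested.

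**Figure D2:**
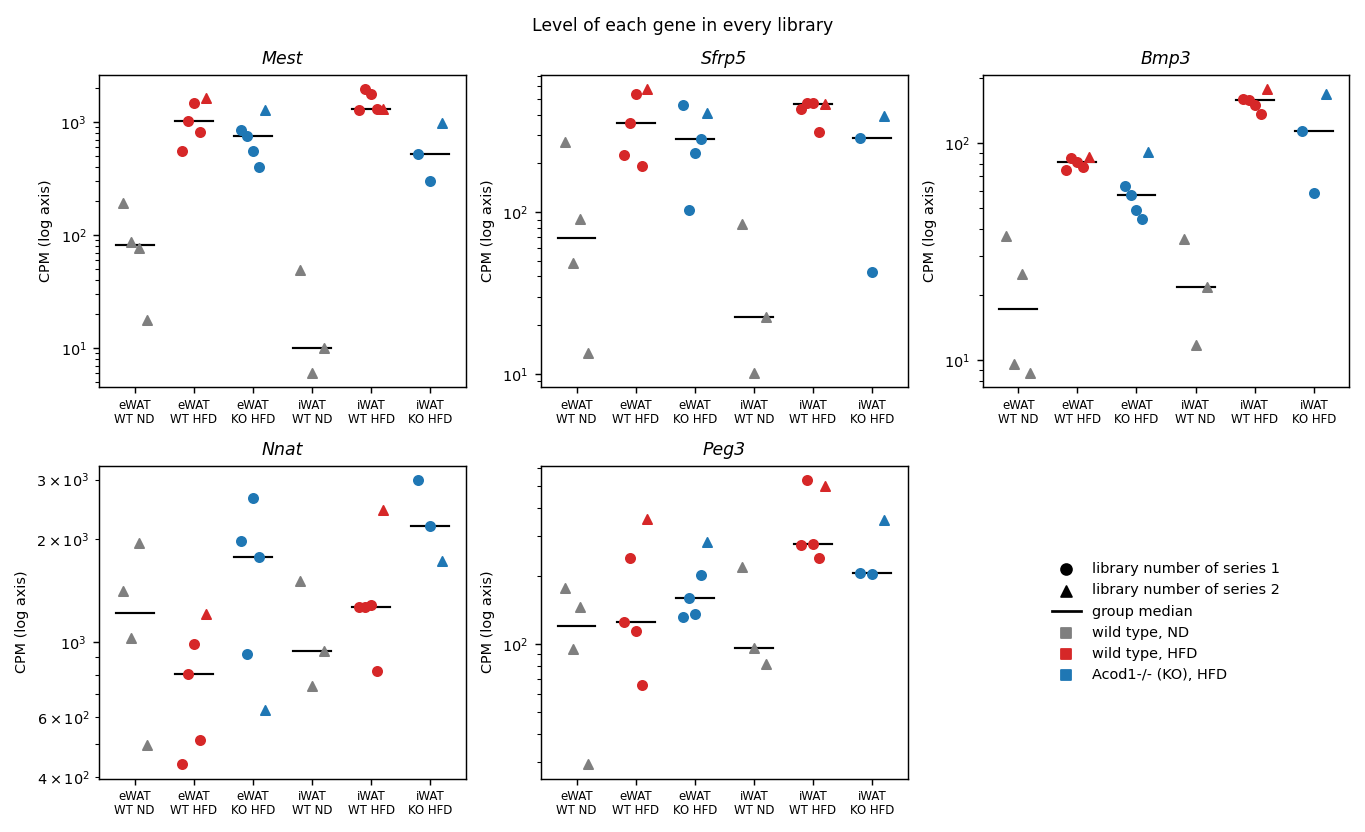
CPM of each gene in every library on log axes, by group; circles and triangles are libraries of the first and second header series and black lines are group medians. Mest, Sfrp5 and Bmp3 are low in the ND libraries of both depots, with Mest at 6.01 to 49.6 CPM in ND iWAT against 1274 to 1983 CPM in HFD-fed WT iWAT.

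Between HFD-fed Acod1-/- and HFD-fed WT mice, none of the 5 genes was called in either depot when all libraries were used. Across all genes, 19.9% were called in eWAT and 0 of 14801 in iWAT, where 2468 genes had an unadjusted p under 0.05. Mest measured 851, 763, 559, 399 and 1283 CPM in Acod1-/- eWAT, overlapping the WT range (log2 fold change -0.53, 95% interval -1.58 to 0.53, adjusted p = 0.51). In Acod1-/- iWAT, Mest measured 525, 305 and 991 CPM, below all 5 WT libraries (log2 fold change -1.35, 95% interval -2.69 to -0.01, adjusted p = 0.297, unadjusted p = 0.0485). Groups that did not overlap, with Acod1-/- lower, were found for 5.1% of all genes in iWAT. Sfrp5 measured 458, 103, 231, 285 and 413 CPM in Acod1-/- eWAT (log2 fold change -0.34, 95% interval -1.66 to 0.97, adjusted p = 0.748). In Acod1-/- iWAT it measured 286, 42.5 and 395 CPM (-0.85, 95% interval -2.37 to 0.66, adjusted p = 0.571). Replicate 2, the library with mammary and skin epithelium markers, was the lowest of the 3 for Mest, Sfrp5 and Bmp3. Without it the differences in iWAT were -1.02 for Mest, -0.35 for Sfrp5 and -0.15 for Bmp3 (adjusted p = 0.554, 0.852 and 0.888). Replicates 2 and 3 of Acod1-/- iWAT are labelled 17 and 18 weeks and the WT libraries 16 weeks, and the part of this was not tested. The intervals in eWAT span differences in either direction.

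Bmp3 measured 63.4, 57.6, 48.8, 44.4 and 90.8 CPM in Acod1-/- eWAT and 113, 58.7 and 168 CPM in Acod1-/- iWAT. Its log2 fold changes were -0.41 (95% interval -1.13 to 0.31, adjusted p = 0.446) and -0.48 (95% interval -1.26 to 0.31, adjusted p = 0.535). Nnat had higher means in the knockout than in WT mice in both depots. It measured 1978, 920, 2651, 1770 and 629 CPM in Acod1-/- eWAT, against 436 to 1205 CPM in WT (log2 fold change 1.01 ± 0.43, SE, adjusted p = 0.135, unadjusted p = 0.033). In Acod1-/- iWAT it measured 2990, 2197 and 1732 CPM, against 821 to 2432 CPM in WT (0.68 ± 0.33, SE, adjusted p = 0.335). Peg3 measured 132, 160, 135, 201 and 284 CPM in Acod1-/- eWAT (0.01, 95% interval -1.0 to 1.03) and 206, 203 and 355 CPM in Acod1-/- iWAT (-0.53, 95% interval -1.38 to 0.32), with adjusted p = 0.988 and 0.52.

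The genotype comparison was repeated within the header series. With the HFD libraries of the first series alone (4 WT against 4 Acod1-/- in eWAT, 4 against 2 in iWAT), Bmp3 was lower and Nnat higher in Acod1-/- mice in both depots. The eWAT values for Bmp3 were 74.6 to 85.2 CPM in WT and 44.4 to 63.4 CPM in Acod1-/- mice, with no overlap (log2 fold change -0.59 ± 0.13, SE, adjusted p = 0.0156). In iWAT, Bmp3 was at 137 to 160 CPM in WT and 58.7 to 113 CPM in Acod1-/- mice (-0.82 ± 0.24, SE, adjusted p = 0.0839). Nnat differed by 1.41 ± 0.36 (SE, adjusted p = 0.0257) in eWAT and by 1.15 ± 0.21 (SE, adjusted p = 0.0331) in iWAT on the log2 scale. Mest was also lower in iWAT, at 1274 to 1983 CPM in WT and 305 to 525 CPM in Acod1-/- mice (-1.95 ± 0.29, SE, adjusted p = 0.022). Of the 2 Acod1-/- libraries in the iWAT fit, 1 is replicate 2, which carried mammary and skin epithelium markers. It is also labelled 17 weeks, and the WT libraries 16 weeks. The part of the markers and of the label in these differences was not tested. These fits called 25% of all genes in eWAT and 14.2% in iWAT, against 2 of the 5 and 3 of the 5 genes. Groups that did not overlap, with Acod1-/- lower, made up 12.7% of all genes in eWAT, against Bmp3 alone of the 5, and 20.9% in iWAT, against Mest, Sfrp5, Bmp3 and Peg3.

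In the second series, 1 library of each genotype and depot is available, so no test is possible there. Nnat was lower in that Acod1-/- library than in the WT library, at 629 against 1205 CPM in eWAT and 1732 against 2432 CPM in iWAT. Bmp3 was at 90.8 against 86.3 CPM in eWAT and 168 against 178 CPM in iWAT. Mest was at 1283 against 1642 CPM in eWAT and 991 against 1306 CPM in iWAT. The difference between the series was itself not tested. Nnat in eWAT was also called without the Acod1-/- library of the second series (replicate 5, log2 fold change 1.21, adjusted p = 0.0483) and without WT HFD replicate 5 (1.21, adjusted p = 0.0939). Epididymis markers stood at 1050 CPM in that Acod1-/- library.

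**Figure D3:**
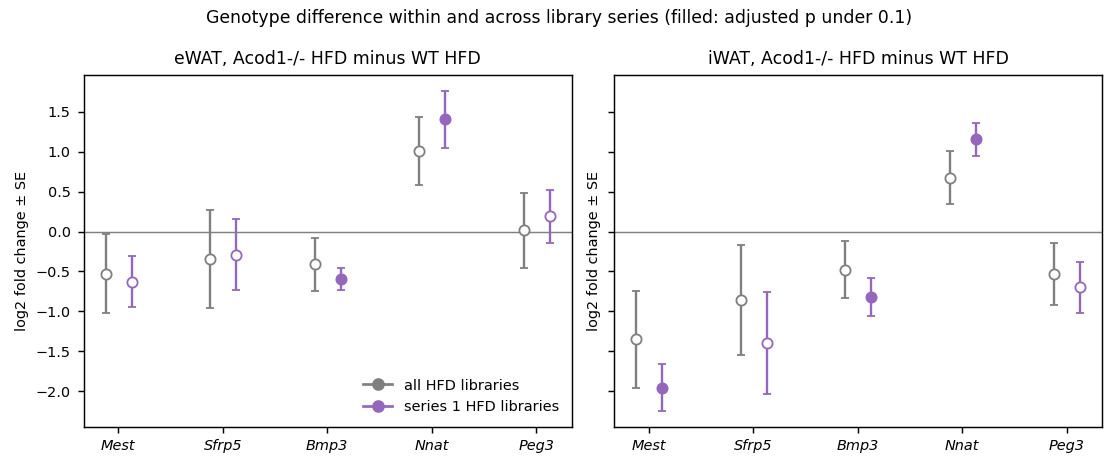
Log2 fold change of HFD-fed Acod1-/- against HFD-fed WT mice (y axis, with SE bars) for each gene, from all HFD libraries (grey) and from those of the first header series alone (purple), in eWAT (left) and iWAT (right); filled points have an adjusted p under 0.1. All grey points are open, while Bmp3 and Nnat in both depots and Mest in iWAT are filled in purple.

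HFD-fed Acod1-/- mice were also compared with ND-fed WT mice, which share the ND libraries with the diet comparison. Only 1 Acod1-/- library per depot shares a header series with the ND libraries, so here too the groups and series largely coincide. Mest and Bmp3 were called in both depots, and under every alternative, the series term among them. In eWAT their log2 fold changes were 3.04 ± 0.58 (SE, adjusted p = 0.00934) and 1.60 ± 0.37 (SE, adjusted p = 0.0164). In iWAT they were 4.82 ± 0.76 (SE, adjusted p = 0.00118) and 2.31 ± 0.41 (SE, adjusted p = 0.00235). Every Acod1-/- library was above every ND library for these 2 genes, as for 8.23% of all genes in eWAT and 18% in iWAT. In iWAT this also held for Nnat (1732 to 2990 CPM against 743 to 1514 CPM on ND). Sfrp5 was called in iWAT (2.66 ± 0.80, SE, adjusted p = 0.031) and not in eWAT (1.49 ± 0.68, SE, adjusted p = 0.137), and Nnat was called in iWAT (1.12 ± 0.38, SE, adjusted p = 0.0501) and not in eWAT (0.38 ± 0.45, SE, adjusted p = 0.573). Peg3 was called in neither (0.70 and 0.97, adjusted p = 0.341 and 0.121). This made 2 of 5 genes in eWAT and 4 of 5 in iWAT, where 26.5% and 34.6% of all genes were called. The iWAT call of Nnat was lost without ND replicate 2 (adjusted p = 0.175), ND replicate 3 (0.123) or Acod1-/- replicate 1 (0.14). With only the groups compared in the fit, the iWAT call of Sfrp5 was lost (2.67, adjusted p = 0.12). Peg3 in iWAT was called by DESeq2 (adjusted p = 0.0484), with the series term (1.40, adjusted p = 0.0508) and without ND replicate 1 (1.53, adjusted p = 0.0232). Leaving out ND replicate 1 of the depot raised the eWAT changes of Sfrp5 and Mest to 2.53 (adjusted p = 0.0323) and 3.63, and the iWAT changes to 3.89 and 6.24. Without Acod1-/- iWAT replicate 2, 4 of the 5 genes were called in iWAT, as with it. That library was the lowest of its group for Mest, Sfrp5, Bmp3 and Peg3, so leaving it out raises their means. The part of its mammary and skin epithelium markers was not tested.

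**Figure D4:**
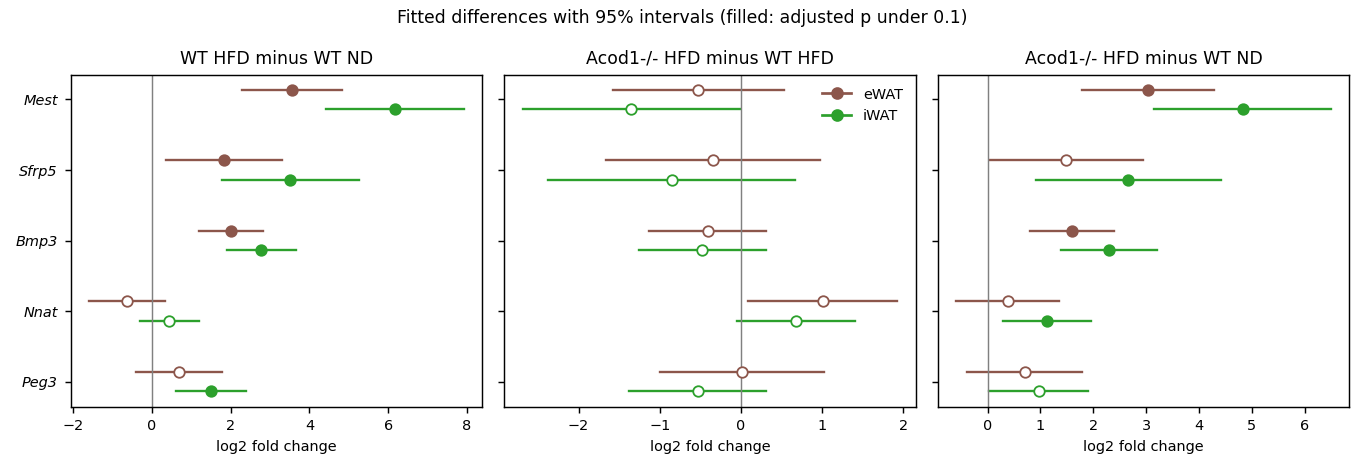
Fitted log2 fold changes (x axis) with 95% intervals for the 5 genes in eWAT (brown) and iWAT (green), for diet, for genotype on HFD and for HFD-fed Acod1-/- against ND-fed WT mice; filled points have an adjusted p under 0.1. Mest lies farthest to the right for diet, at 3.56 in eWAT and 6.17 in iWAT, and no point of the genotype panel is filled.

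Ranked by mean CPM, Mest was highest in HFD-fed WT iWAT (1535 ± 327, SD, n = 5), followed by HFD-fed WT eWAT, Acod1-/- eWAT (771 ± 336, SD, n = 5), Acod1-/- iWAT (607 ± 350, SD, n = 3), ND eWAT and ND iWAT (21.9 ± 24.1, SD, n = 3). Neighbouring groups in this order overlapped in range except between Acod1-/- iWAT and ND eWAT. Sfrp5 kept the same order, from 433 ± 69.8 CPM (SD, n = 5) in HFD-fed WT iWAT to 38.9 ± 39.7 CPM (SD, n = 3) in ND iWAT, with every pair of neighbours overlapping. Bmp3 was highest in HFD-fed WT iWAT (156 ± 15.1, SD, n = 5), then in Acod1-/- iWAT, HFD-fed WT eWAT and Acod1-/- eWAT, and its ND groups were at 23.2 ± 12.3 (SD, n = 3) in iWAT and 20.1 ± 13.6 (SD, n = 4) in eWAT. Nnat was highest in Acod1-/- iWAT (2306 ± 636, SD, n = 3) and lowest in HFD-fed WT eWAT (789 ± 321, SD, n = 5), and its neighbours overlapped throughout. Peg3 ranged from 364 ± 140 (SD, n = 5) in HFD-fed WT iWAT to 112 ± 64.7 (SD, n = 4) in ND eWAT, also with overlapping neighbours.

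Levels of different genes were compared on the deposited FPKM scale, which divides by transcript length. In ND eWAT, Nnat had a mean of 692 FPKM, Sfrp5 59.4, Mest 25.3, Peg3 8.80 and Bmp3 2.84. In HFD-fed WT iWAT, Nnat had a mean of 767 FPKM, Mest 382, Sfrp5 225, Peg3 26.9 and Bmp3 20.8. In both depots the mean of Mest was below that of Sfrp5 on ND and above it on HFD. On the CPM scale, the ND eWAT libraries spanned 11-fold for Mest and 20.4-fold for Sfrp5 from lowest to highest, against 2.98-fold and 3.01-fold in HFD-fed WT eWAT. ND replicate 1 had the highest value of Mest, Sfrp5, Bmp3 and Peg3 in each depot.

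Depots were compared within each condition, eWAT against iWAT. On ND, Mest was called (log2 difference 2.10 ± 0.68, SE, adjusted p = 0.0281), where 31.7% of all genes were called, and Sfrp5 was not (1.45 ± 0.80, SE, adjusted p = 0.203). The Mest difference was 3.54 without iWAT ND replicate 1, and its call was lost with only the groups compared (2.11, adjusted p = 0.145) and without eWAT ND replicate 1 (adjusted p = 0.118), iWAT ND replicate 2 (0.141) or iWAT ND replicate 3 (0.124). In HFD-fed WT mice, Bmp3 was lower in eWAT, with no overlap between the depots, as for 5.12% of all genes (-0.94 ± 0.34, SE, adjusted p = 0.0705), and 18.6% of all genes were called. Its estimate ranged from -0.97 to -0.89 over all alternatives, but its adjusted p reached 0.148. Nnat and Peg3 differed by -0.84 and -1.01 there (adjusted p = 0.173 and 0.143). In Acod1-/- mice, none of the 5 was called (3.81% of all genes), with Bmp3 at -0.89 ± 0.38 (SE, adjusted p = 0.291).

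The diet difference itself differed between depots for Mest. The log2 fold change in eWAT minus that in iWAT was -2.57 ± 0.85 (SE, interaction term over all 25 libraries, adjusted p = 0.035), and 29% of all genes were called in this test. It was -4.01 without iWAT ND replicate 1 (adjusted p = 0.00207). The call was lost without eWAT ND replicate 1 (-1.94, adjusted p = 0.1), iWAT ND replicate 2 (-2.12, adjusted p = 0.111) or iWAT ND replicate 3 (-2.23, adjusted p = 0.101). For Sfrp5, Bmp3, Nnat and Peg3 the interaction was -1.64, -0.73, -1.04 and -0.77, with adjusted p = 0.268, 0.354, 0.247 and 0.463. The genotype difference was not shown to differ between depots for any of the 5 (0.05 to 0.81, adjusted p of 0.768 to 0.986), and 0.00665% of all genes were called.

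Across the 25 libraries, Mest, Sfrp5 and Bmp3 varied together. These correlations describe log2 CPM over libraries that share diet, depot and series. Pearson's r was 0.92 between Mest and Sfrp5, 0.88 between Mest and Bmp3 and 0.85 between Sfrp5 and Bmp3. With group means removed, r was 0.85, 0.80 and 0.85. These values pool the deviations of all groups, and r was not computed inside any single group. How often other pairs of genes reach such r was not computed. Over the 25 libraries, Mest, Sfrp5 and Bmp3 each had genes with a higher r, given below. Mest and Peg3 had r = 0.64, and 0.71 with group means removed. Nnat had r = 0.17 with Mest, 0.27 with Sfrp5 and 0.46 with Peg3, and 0.35, 0.52 and 0.45 with group means removed.

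The genes most like Mest were the lincRNA 1700047G03Rik (r = 0.97), Tfpi2, a secreted protease inhibitor (r = 0.96), and Fam20c, a kinase of secreted proteins (r = 0.96). Those most like Sfrp5 were Synpo2 (r = 0.97), an actin-associated protein, the antisense RNA E130310I04Rik (r = 0.95) and the secreted protease Htra3 (r = 0.95). Bmp3 was followed by Syp (r = 0.94), the synaptic vesicle protein synaptophysin, the lincRNA Gm5627 (r = 0.94) and Serpinf1 (r = 0.93), which encodes the secreted factor PEDF. Nnat was followed by Pink1 (r = 0.86), a mitochondrial kinase, Gstt1 (r = 0.85), a glutathione transferase, and Gm23134 (r = 0.84), a miRNA gene annotated on the opposite strand within Nnat at chr2:157562361-157562447. Reads of Nnat and Gm23134 may therefore not be separable.

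Peg3 was most like its imprinted neighbour Zim1, with r = 0.94 over the 25 libraries and 0.95 with group means removed. Zim1 is expressed from the maternal allele. It was far less abundant, at 6.12 ± 2.98 CPM (SD, n = 4) in ND eWAT and 26.9 ± 13.0 CPM (SD, n = 5) in HFD-fed WT iWAT. Zim1 rose with diet in iWAT by 1.95 ± 0.49 (SE, adjusted p = 0.0085) on the log2 scale and was at 0.36 ± 0.58 (SE, adjusted p = 0.641) in eWAT. In HFD-fed WT mice it was lower in eWAT than in iWAT (-1.77 ± 0.52, SE, adjusted p = 0.0282). It was followed by Gabrr2 (r = 0.84), a GABA receptor subunit. Usp29, which starts beside Peg3, had 0 to 74 reads per library.

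**Figure D5:**
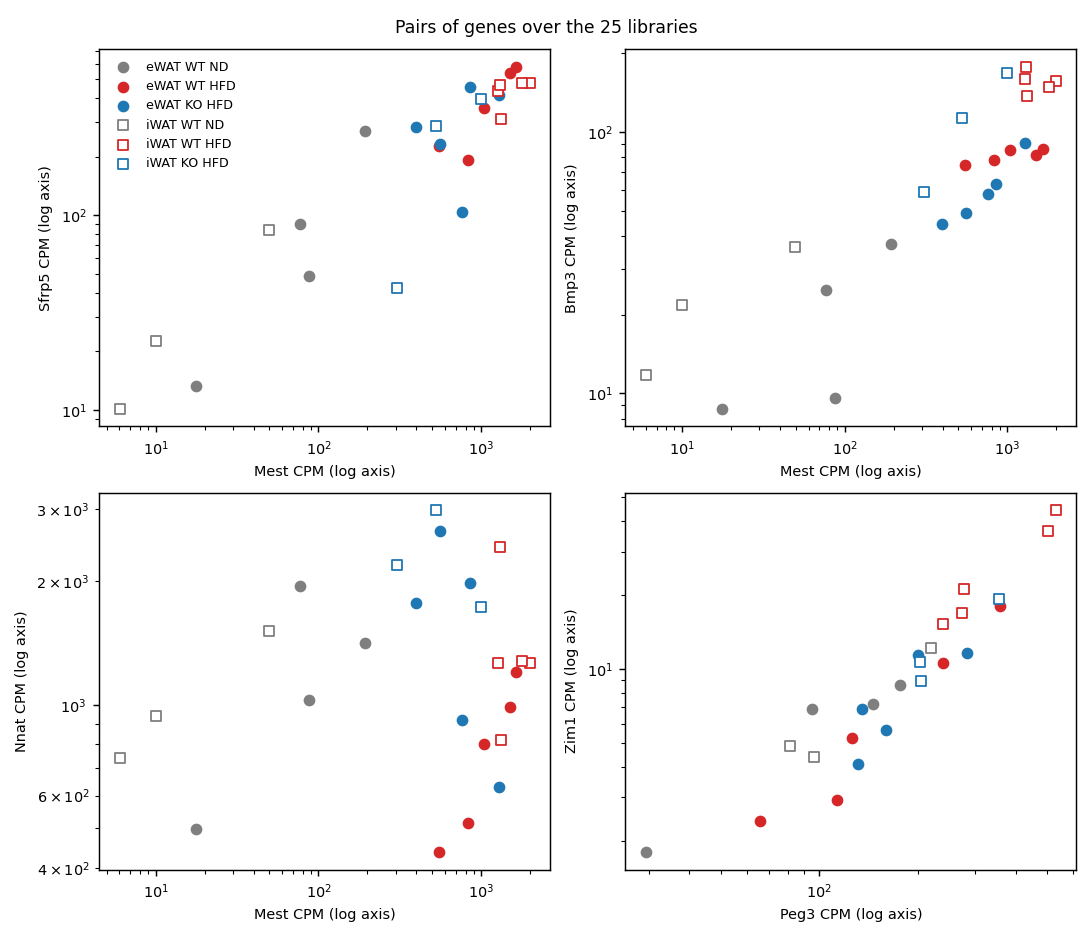
CPM of pairs of genes over the 25 libraries on log axes; circles are eWAT, squares iWAT and colours give diet and genotype. Mest rises with Sfrp5 (r = 0.92) and Bmp3 (r = 0.88) and less with Nnat (r = 0.17), and Peg3 rises with Zim1 (r = 0.94).

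Copg2 and Blcap, which overlap Mest and Nnat, moved by less than 1 log2 unit. Copg2, a coat protein subunit gene, was at -0.08 ± 0.12 (SE, adjusted p = 0.627) with diet in eWAT and rose by 0.63 ± 0.13 (SE, adjusted p = 0.003) on the log2 scale in iWAT, where Mest rose by 6.17. Blcap fell by 0.50 (SE 0.19, adjusted p = 0.0498) with diet in eWAT and was higher in Acod1-/- than in WT eWAT (0.66 ± 0.18, SE, adjusted p = 0.0338). Its host position around Nnat means that these Blcap values may hold reads of Nnat.

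Other imprinted genes did not share 1 direction. The counts of lists below stand against 51.8% of all genes called with diet in eWAT (24.8% higher), 50.1% in iWAT (25.9% higher) and 19.9% called between genotypes in eWAT. Of 14 further paternally expressed genes tested in eWAT, 3 rose and 5 fell with diet, with a median log2 fold change of -0.09 against -0.04 for all genes. Zrsr1 (-1.24 ± 0.16, SE, adjusted p = 0.000282), the growth regulator Plagl1 (-1.59 ± 0.28, SE, adjusted p = 0.00107) and Peg13 (-1.08 ± 0.21, SE, adjusted p = 0.00195) had the smallest p and fell. In iWAT, 6 rose and 1 fell of 13, with a median of 0.45 against 0.00 for all genes. They included Snrpn (1.25 ± 0.15, SE, adjusted p = 0.000178), Ndn (1.09 ± 0.14, SE, adjusted p = 0.000263) and Peg10 (2.86 ± 0.56, SE, adjusted p = 0.0023). Of maternally expressed genes, 2 rose and 2 fell of 12 in eWAT and 3 rose and 1 fell of 11 in iWAT (medians 0.32 and 0.20). In the genotype comparison in eWAT, 3 of 14 paternally expressed genes were higher in Acod1-/- mice and 1 of 12 maternally expressed genes was higher and 2 were lower, near the 19.9% of all genes.

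Secreted WNT antagonists share a function with Sfrp5. Of 6 tested, 2 rose in eWAT, Sfrp4 (1.76 ± 0.43, SE, adjusted p = 0.00578) and Wif1 (4.49 ± 1.28, SE, adjusted p = 0.0135), and 2 rose in iWAT, Sfrp4 (3.40 ± 0.53, SE, adjusted p = 0.000701) and Sfrp2 (1.82 ± 0.45, SE, adjusted p = 0.0079). None fell in either depot, and the medians were 0.56 and 0.73. Of all genes, 51.8% and 50.1% were called in either direction, and 24.8% and 25.9% were called higher. WNT ligands fell in 2 of 7 in eWAT, Wnt9a and Wnt10b (-0.73 and -0.93, adjusted p = 0.0262 and 0.05), and rose in 4 of 7 in iWAT, with Wnt5a at 1.22 ± 0.21 (SE, adjusted p = 0.00128). WNT receptors and coreceptors rose in 1 and fell in 2 of 13 in eWAT, led by Lrp5 (-1.66 ± 0.16, SE, adjusted p = 9.34e-05), and rose in 6 of 12 in iWAT, led by Ryk (0.57 ± 0.09, SE, adjusted p = 0.000899). Feedback targets of WNT/beta-catenin signalling rose in 1 and fell in 4 of 7 in eWAT (median -0.72), among them Rnf43 (-3.25, adjusted p = 0.00375), Znrf3 (-1.08, adjusted p = 0.00381) and Axin2 (-1.10, adjusted p = 0.00691). In iWAT they rose in 1 and fell in 3 of 7 (median -0.47), with Nkd1 higher (3.49, adjusted p = 0.000509) and Tcf7 and Lef1 lower (-4.10 and -3.71, adjusted p = 0.0051 and 0.0348). Tcf7 and Lef1 are also genes of lymphocytes, whose markers were high in the ND iWAT libraries.

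In the diet by depot interaction, 29% of all genes were called in either direction. In the lists of other BMP ligands, BMP receptors and BMP inhibitors, 4 of 8, 5 of 9 and 8 of 12 were called, all with the lower change in eWAT. This direction was shared by 6 of 6 endothelial markers, 6 of 7 caveola coat genes and 7 of 14 other paternally expressed genes. Lymphocyte markers (6 of 6) and brown adipocyte markers (5 of 5) were called the other way. The ND iWAT libraries held lymph node markers, and their part here was not tested. The list of other BMP ligands also holds Bmp1, a secreted procollagen protease and not a ligand. With diet, its genes rose in 2 and fell in 3 of 9 in eWAT, with Bmp2, Bmp6 and Bmp7 lower (-1.07, -1.21 and -1.98, adjusted p = 0.00361, 0.00378 and 0.0107). In iWAT they rose in 5 of 7, with Gdf10, Gdf5 and Bmp1 higher (1.33, 1.52 and 1.44, adjusted p = 0.00219, 0.00813 and 0.000552). Bmp3, which opposes signalling by other BMPs, rose in both depots. BMP receptors rose in 2 and fell in 4 of 9 in eWAT, led by Acvr1 (-1.0 ± 0.13, SE, adjusted p = 0.000273), and rose in 4 of 8 in iWAT, led by Bmpr2 (0.77 ± 0.13, SE, adjusted p = 0.000925). BMP inhibitors rose in 2 and fell in 3 of 11 in eWAT, where Chrd fell (-1.33, adjusted p = 0.000282) and Fst rose (1.38, adjusted p = 0.00538). In iWAT they rose in 6 and fell in 2 of 12, with Fstl3, Nog and Bambi higher (2.69, 4.74 and 1.34, adjusted p = 0.00117, 0.00314 and 0.00553). BMP target genes rose in 2 and fell in 3 of 8 in eWAT and rose in 2 and fell in 1 of 7 in iWAT. Id2 rose in eWAT (0.78, adjusted p = 0.0307) and fell in iWAT (-1.02, adjusted p = 0.00241).

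Caveola coat genes are a structural set of the adipocyte surface. They rose in 2 and fell in 2 of 7 in eWAT and rose in 6 of 7 in iWAT. Of all genes, 51.8% were called in eWAT (24.8% higher) and 50.1% in iWAT (25.9% higher). The list was led in iWAT by Cavin1 (1.49 ± 0.15, SE, adjusted p = 9.4e-05), Cavin3 (2.68 ± 0.29, SE, adjusted p = 0.000136) and Cav1 (1.26 ± 0.18, SE, adjusted p = 0.000396). In the genotype comparison in eWAT, 3 of 7 were higher in Acod1-/- mice, where 19.9% of all genes were called, with Cavin2 at 0.54 ± 0.17 (SE, adjusted p = 0.0542).

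Cell type markers also moved with diet and genotype. Their counts stand against 51.8% of all genes called with diet in eWAT (24.8% higher), 50.1% in iWAT (25.9% higher) and 19.9% with genotype in eWAT. Macrophage markers rose with diet in 9 of 9 in eWAT and 7 of 9 in iWAT, and 9 of 9 were lower in Acod1-/- than in WT eWAT. Their summed level was 457 to 828 CPM on ND, 1325 to 4349 CPM in HFD-fed WT and 413 to 1347 CPM in Acod1-/- eWAT. Progenitor and fibroblast markers rose in 8 of 10 in eWAT and 9 of 10 in iWAT, and 6 of 10 were lower in Acod1-/- eWAT. Mature adipocyte markers rose in 1 and fell in 6 of 12 in eWAT, where Lep rose by 2.09 ± 0.54 (SE, adjusted p = 0.0082) and Cfd fell by 3.41 (SE 0.64, adjusted p = 0.00147) on the log2 scale. In iWAT they rose in 5 and fell in 2 of 12, with a summed level of 31484 to 37895 CPM on ND and 43345 to 54880 CPM in HFD-fed WT mice. In Acod1-/- eWAT, 7 of 12 adipocyte markers and 3 of 6 epididymis markers (median 4.30) were higher than in WT. Endothelial markers fell in 5 of 6 in eWAT and rose in 6 of 6 in iWAT. Brown adipocyte markers rose in 3 of 4 in eWAT and fell in 4 of 5 in iWAT. In eWAT, mesothelial markers fell in 3 of 5, mammary and skin epithelium markers in 4 of 5 and epididymis markers in 2 of 6, and Schwann cell and nerve markers rose in 2 and fell in 1 of 3. In iWAT, skeletal muscle markers fell in 5 of 5, Schwann cell and nerve markers in 1 of 5 and mammary and skin epithelium markers in 1 of 5. In eWAT none of 5 lymphocyte markers and 1 of 4 muscle markers were called. The part of these cell types in the differences of Mest, Sfrp5, Bmp3, Nnat and Peg3 was not tested. Without ND iWAT replicate 1, the library with muscle markers, the same number of the 5 genes, 4, was called for diet in iWAT. That library held the highest ND iWAT value of Mest, Sfrp5, Bmp3 and Peg3, so leaving it out widens their differences. This omission therefore cannot show the part of muscle, which was not tested.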

How the data were processed

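Total RNA of snap-frozen eWAT and iWAT was made into directional mRNA libraries. Per the labels and the study's methods, the authors trimmed reads with cutadapt, aligned them to GRCm38 (mm10) with STAR and used bedtools. For each library the authors deposited counts of reads per gene, a cDNA length and FPKM values, and recomputing FPKM from the other columns differed by at most 0.0005. The counting program is not given in the sources used here. IDs were joined to GENCODE vM21 symbols (54723 of 54752). Reads on no feature were 6.41% to 11.9% and ambiguous reads 1.52% to 2.07% of reads classified, and were left out.

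Genes averaging 1 CPM or more were normalized by TMM and tested by the quasi-likelihood method of edgeR 4.0.16 (R 4.3.3), in 1 fit per depot or over all 25 libraries for depot and interaction terms. P-values were adjusted by Benjamini-Hochberg across every gene in a fit, with calls made below 0.1. DESeq2 1.42.0 was an alternative, and figures used matplotlib 3.10.9. Other alternatives were no filter or 1 CPM in every library, DESeq2 size factors, an adjusted p under 0.05, only the groups compared, a replicate block, header series as a term, the first series alone and leaving out each library. The fits were tested on simulated counts. Log2 CPM for correlations used a prior count of 2. The closest genes are the 3 with the highest Pearson's r among tested genes, and up to 3 genes with the smallest p are named per list. Some genes that this rule selects are not reported here. The 5 genes and all lists were chosen with earlier results of these data known. Labels only number the replicates, and the study gives its group sizes for both depots as mice, which match the library counts. P-values set each difference against the spread between these libraries. No 2 of the 42 library pairs within groups agreed within sampling noise (lowest chi-square per degree of freedom 30.9).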

Additional observations from a re-analysis of the deposited data

Results flagged for a closer look

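In HFD-fed WT iWAT, Sfrp5 in replicate 4 was at 312 CPM, far below the other 4 libraries (436 to 477 CPM). Nnat in replicate 5 of the same group was at 2432 CPM, far above the other 4 (821 to 1282 CPM). That library belongs to the second header series and the other 4 to the first. Both stood out by Dixon's criterion at the 95% level, Nnat only narrowly (gap over range 0.714 against a critical 0.71). In all, 20 sets of 1 gene in 1 group of 4 or 5 libraries were examined, of which chance marks about 1 in 20. These sets reuse the same libraries. The diet difference of Mest itself differed between the depots by -2.57 on the log2 scale (eWAT minus iWAT, interaction term, adjusted p = 0.035).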

How the results depend on the processing

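The direction of all calls for diet held under every alternative, and Mest and Bmp3 were called in both depots in all of them. Over the 55 gene-by-comparison results, 1388 of the alternative values kept direction and side of the threshold, 23 moved past it, 22 fell short of it and 17 changed sign, all of the last in results that were not called. Counts of the 5 genes called kept within 1.5 times in 260 instances and not in 30. For genotype, 1 gene was called in eWAT by DESeq2 (Nnat, adjusted p = 0.0519), and with the first series alone 2 in eWAT and 3 in iWAT. For depot on ND, 0 genes were called with only the groups compared and 2 with the replicate block. For depot on HFD in WT mice, 0 were called at an adjusted p under 0.05 and with no filter, and 2 by DESeq2, with the replicate block and with the series term. Leaving out single libraries gave 2 to 3 genes for diet in eWAT, 0 to 1 for genotype in eWAT, 2 to 3 in eWAT and 3 to 5 in iWAT for HFD-fed Acod1-/- against ND-fed WT mice, 0 to 2 for depot on ND and on HFD in WT mice, and 0 to 2 for the diet by depot interaction. The cause of these changes was not tested. For Peg3 and genotype in eWAT the sign turned with no filter (-0.027) and over single omissions (-0.21 to 0.42). Sign also turned over single omissions for depot on ND in Bmp3 (-0.70 to 0.26), Nnat (-0.11 to 0.53) and Peg3 (-0.55 to 0.33), for depot on HFD in the knockout in Sfrp5 (-0.19 to 0.87), and for genotype by depot in Sfrp5 (-0.0096 to 1.05) and Bmp3 (-0.27 to 0.44). Mean CPM of the 5 genes without TMM moved by less than 1 SD in every group, and with a prior count of 0.5 the closest genes were the same 3 except for Sfrp5, where 2 were shared. Whether replicate numbers pair the libraries could not be decided, as no label says so and correlations of deviations were mixed. Between same-numbered libraries they ranged from -0.30 to 0.49, and no comparison had every pair above 0.1. Libraries correlated best with their own number in 3 of 3 for depots on ND and 4 of 5 for genotype in eWAT. The same held in 2 of 5 for depots on HFD in WT mice and 1 of 3 for genotype in iWAT. The replicate block changed calls only in the depot comparisons, adding Sfrp5 on ND (1.59, adjusted p = 0.0944) and Peg3 on HFD in WT mice (-1.15, adjusted p = 0.0588). With 3 libraries in ND iWAT and Acod1-/- iWAT, 1 library can decide a call there.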
